A study of Mus musculus with 12 samples.

Results

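The genes described here are 10 transcripts that the somatic cells around the oocyte, the granulosa cells, are known for: Inha, Inhba, Inhbb, Fst, Hsd17b1, Nap1l5, Kitl, Cyp19a1, Nr5a2 and Serpine2. They were measured in pools of oocytes from which the surrounding cells had been stripped. They were chosen by their measured values, since WT replicate 3 had shown high levels of several granulosa genes. The aim was to separate the members that stood high in that pool from those that did not. All 10 were among the 11385 genes with values. In WT replicate 3, 6 of the 10 stood at over 2 times the highest of the other 11 pools (Inha, Inhba, Inhbb, Fst, Hsd17b1 and Nap1l5), and the remaining members, Kitl, Cyp19a1, Nr5a2 and Serpine2, did not.

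The pools came from Mfn1-/-, Mfn2-/-, Mfn1&2-/- and WT mice, with 3 pools of each, and every pool held 50 oocytes at the germinal vesicle stage, when the nucleus is still intact and meiosis is arrested. All mice carried the strain label C57BL/6J, were 21 to 23 days old and had received no hormone priming. Cumulus cells, the granulosa cells that touch the oocyte, had been removed by pipetting. The labels used here do not give what drives the deletions, whether granulosa cells carried them, or whether replicate pools were drawn from different animals, so p-values measure the spread between pools. The mitofusins are the proteins that fuse the outer membranes of mitochondria.

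Granulosa cells feed the oocyte through gap junctions and make the estrogen, inhibins and activins of the growing follicle. Inhibins pair an alpha subunit with a beta subunit, activins are dimers of beta subunits, and follistatin binds activins and blocks them. Kit ligand likewise acts from granulosa cells on the oocyte, where it binds the Kit receptor and promotes growth. Fewer granulosa cells in a pool and less RNA per granulosa cell cannot be told apart in bulk RNA. Whether part of the members' RNA came from the oocyte itself was not tested.

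Levels are given in CPM, read counts scaled to a common library size and by TMM factors, which correct for differences in RNA composition. Libraries held 11575357 to 16024893 counts, and a floor of 3 counts came to 0.188 to 0.253 CPM. Within groups, log2 CPM of 2 libraries had a Pearson r of 0.953 to 0.979 over all genes. Mfn1 stood at 14.8 to 26.4 CPM in the 6 pools lacking it and at 217.3 to 296.8 CPM in the others, and Mfn2 stood at 9.19 to 13.5 CPM in the 6 pools lacking it and at 64.3 to 87.2 CPM in the others. WT replicate 3 stood apart from the other libraries. Of the 7732 genes with at least 10 CPM there, 59 (0.763%) were over 2 times the highest of the other 11 pools and 8 were over 5 times, while each other pool had 0 to 3 genes over 2 times and 0 over 5 times. Values of WT replicate 3 set against the other pools are a description with no test, because they chose the members.

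The inhibin and activin subunits showed the widest separation. Inha, the alpha subunit of inhibin (chromosome 1, 75507077 to 75510366 on GRCm38), stood at 77.9 CPM in WT replicate 3. In the other pools Inha stood at 2.63, 9.66 and 16.4 CPM in Mfn1-/-, at 5.39, 2.24 and 4.08 CPM in Mfn2-/-, at 5.98, 3.09 and 5.22 CPM in Mfn1&2-/-, and at 8.55 and 19.8 CPM in WT. WT replicate 3 was thus 3.93 times the next pool, WT replicate 2, and the WT pools ran from a value inside the Mfn1-/- range to one far above it.

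Inhba, the beta A subunit (chromosome 13, 16011851 to 16031621), reached 71.3 CPM in WT replicate 3. The other pools had 0.0752, 3.95 and 4.16 CPM in Mfn1-/-, 0.333, 0.0830 and 1.07 CPM in Mfn2-/-, 1.26, 1.91 and 1.67 CPM in Mfn1&2-/-, and 1.84 and 5.31 CPM in WT. The ratio of WT replicate 3 to the highest of the other 11 pools was 13.4, the highest of any gene with at least 10 CPM in that pool, and the lowest values, in Mfn1-/- replicate 1 and Mfn2-/- replicate 2, were 1 count each. Inhbb, the beta B subunit (chromosome 1, 119415465 to 119422248), reached 155.4 CPM in WT replicate 3. Its other pools had 0.226, 5.83 and 17.0 CPM in Mfn1-/-, 4.00, 1.83 and 3.01 CPM in Mfn2-/-, 5.22, 7.76 and 5.00 CPM in Mfn1&2-/-, and 4.47 and 10.6 CPM in WT. Its ratio to the next pool was 9.15, that pool being Mfn1-/- replicate 3 and not a WT pool.

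Fst, the activin-binding protein follistatin (chromosome 13, 114452290 to 114458951), stood at 20.3 CPM in WT replicate 3. The other pools had 0, 2.19 and 2.66 CPM in Mfn1-/-, 0.599, 1.58 and 0.402 CPM in Mfn2-/-, 1.52, 0.329 and 1.44 CPM in Mfn1&2-/-, and 3.03 and 2.36 CPM in WT. WT replicate 3 was 6.69 times the highest of them, and the pool listed at 0, Mfn1-/- replicate 1, had 0 counts, which allows up to 0.226 CPM for counting error only. Hsd17b1, which turns estrone into estradiol (chromosome 11, 101078411 to 101080527), stood at 15.2 CPM in WT replicate 3. The other pools had 0.602, 1.25 and 2.08 CPM in Mfn1-/-, 0.866, 1.08 and 1.14 CPM in Mfn2-/-, 1.60, 1.18 and 1.82 CPM in Mfn1&2-/-, and 3.27 and 1.52 CPM in WT. WT replicate 3 was 4.64 times the highest of them, and the highest of those 11 values was 5.44 times the lowest.

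Nap1l5, an imprinted gene of the nucleosome assembly protein family (chromosome 6, 58905233 to 58907076), stood at 38.7 CPM in WT replicate 3. The other pools had 0.451, 2.7 and 1.42 CPM in Mfn1-/-, 0.466, 0 and 0.469 CPM in Mfn2-/-, 3.62, 1.64 and 2.65 CPM in Mfn1&2-/-, and 2.00 and 5.65 CPM in WT. WT replicate 3 was 6.86 times the highest of them, and the Mfn2-/- pools lay below every Mfn1&2-/- and WT pool. Nothing is read from this separation, since its frequency over all genes was not computed. Nap1l5 lies on the opposite strand within the span of Herc3, an E3 ubiquitin ligase gene. Herc3 stood at 86.2 CPM in WT replicate 3 and at 52.5 to 96.5 CPM in the other 11 pools. The sources used here do not give the strand setting of the counting, so reads of overlapping genes could have been assigned to either. The same holds for Inhba and Fst, which overlap antisense or pseudogene models on the opposite strand that had no values here.

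**Figure D1:**
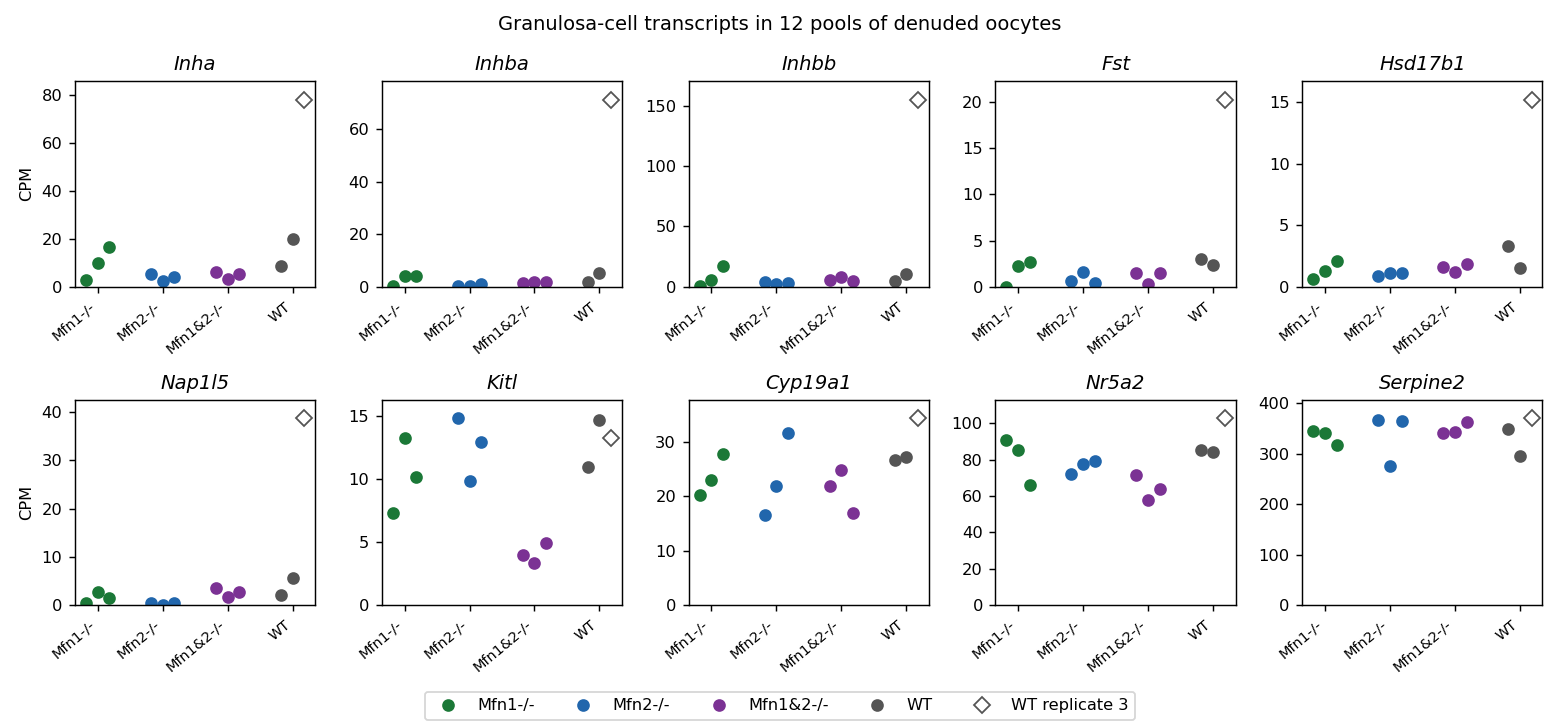
CPM of each of the 10 genes (a vertical axis from 0 for each gene) in every pool, with 1 point per pool and the 4 groups along the horizontal axis; the open diamond is WT replicate 3. The 6 genes from Inha to Nap1l5 have the diamond far above all other points, at 3.93 to 13.4 times the next pool, whereas Kitl separates the 3 Mfn1&2-/- pools (3.35 to 4.92 CPM) from all others.

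The remaining members stood below the line of 2 times. WT replicate 3 was the highest pool for Cyp19a1, Nr5a2 and Serpine2, as it was for 14.6% of the 7732 genes with at least 10 CPM there. Against the pooled counts of the other 11 pools, WT replicate 3 stood at 1.46 times for Cyp19a1 (exact 95% interval 1.32 to 1.62), at 1.36 times for Nr5a2 (1.28 to 1.44) and at 1.09 times for Serpine2 (1.06 to 1.13), with intervals for counting error only. Kitl, the ligand of the Kit receptor (chromosome 10, 100015630 to 100100416), stood at 13.3 CPM in WT replicate 3, the fourth highest of the 12 pools. The others had 7.29, 13.3 and 10.2 CPM in Mfn1-/-, 14.8, 9.88 and 13.0 CPM in Mfn2-/-, 3.96, 3.35 and 4.92 CPM in Mfn1&2-/-, and 10.9 and 14.7 CPM in WT. The 3 Mfn1&2-/- pools were below all 9 others, with no overlap, and the other groups overlapped one another. How many of all genes were separated in this way was not computed, so nothing is read from the separation itself.

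Cyp19a1, the aromatase that makes estrogens (chromosome 9, 54165937 to 54268110), stood at 34.4 CPM in WT replicate 3. The others had 20.3, 23.0 and 27.9 CPM in Mfn1-/-, 16.6, 22.0 and 31.6 CPM in Mfn2-/-, 22.0, 24.9 and 17.0 CPM in Mfn1&2-/-, and 26.8 and 27.3 CPM in WT. WT replicate 3 was the highest by a ratio of only 1.09, and the WT range overlapped that of each single knockout but lay above the Mfn1&2-/- pools. Nr5a2, a nuclear receptor needed in granulosa cells for ovulation (chromosome 1, 136842571 to 136960448), stood at 102.8 CPM in WT replicate 3. The others had 90.8, 85.5 and 66.1 CPM in Mfn1-/-, 72.2, 77.5 and 79.2 CPM in Mfn2-/-, 71.4, 57.6 and 63.8 CPM in Mfn1&2-/-, and 85.3 and 84.3 CPM in WT. The ratio was 1.13, and both the Mfn2-/- and the Mfn1&2-/- pools lay below all WT pools. The share of all genes with such separations was not computed, so nothing is read from those of Cyp19a1 and Nr5a2.

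Serpine2, a secreted inhibitor of serine proteases (chromosome 1, 79794197 to 79861180), stood at 370.7 CPM in WT replicate 3. The others had 345.4, 342.0 and 318.2 CPM in Mfn1-/-, 366.8, 275.9 and 365.1 CPM in Mfn2-/-, 341.4, 343.1 and 363.0 CPM in Mfn1&2-/-, and 350.2 and 296.1 CPM in WT. All groups overlapped, and the highest of the other 11 pools was only 1.33 times the lowest. The same measure was 8.84 for Inha. For Inhbb, whose lowest value was 3 counts in Mfn1-/- replicate 1, it was 75.3, and 9.30 without that pool. The lowest Inhba values were 1 count each, so no such ratio is given for it.

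Among the members, the dividing line of 2 times fell in a wide gap. The members were chosen by their measured values, so the gap follows largely from the choice and does not support the line. The member just inside it was Inha at 3.93 and the member just outside it was Nr5a2 at 1.13. Over the 7732 genes the median ratio of WT replicate 3 to the highest of the other pools was 0.802. The ratios of all these genes showed no such gap, with 2.02 and 1.996 as the nearest on either side of the line. The 12 genes with the highest ratios were Inhba, Inhbb, Thbs1, Nap1l5, Fst, Gja1, Heph, Plod2, Hsd17b1, Tenm4, Lect1 and Fbn2, which ran from 13.4 to 4.37. Of the genes in that list that are not members, Gja1 encodes connexin 43, the gap junction protein between granulosa cells, and stood at 183.6 CPM in WT replicate 3 (ratio 6.44). Thbs1, the matrix protein thrombospondin 1, stood at 81.0 CPM there (8.07), and Tenm4, a teneurin of the cell surface, at 161.7 CPM (4.42).

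**Figure D2:**
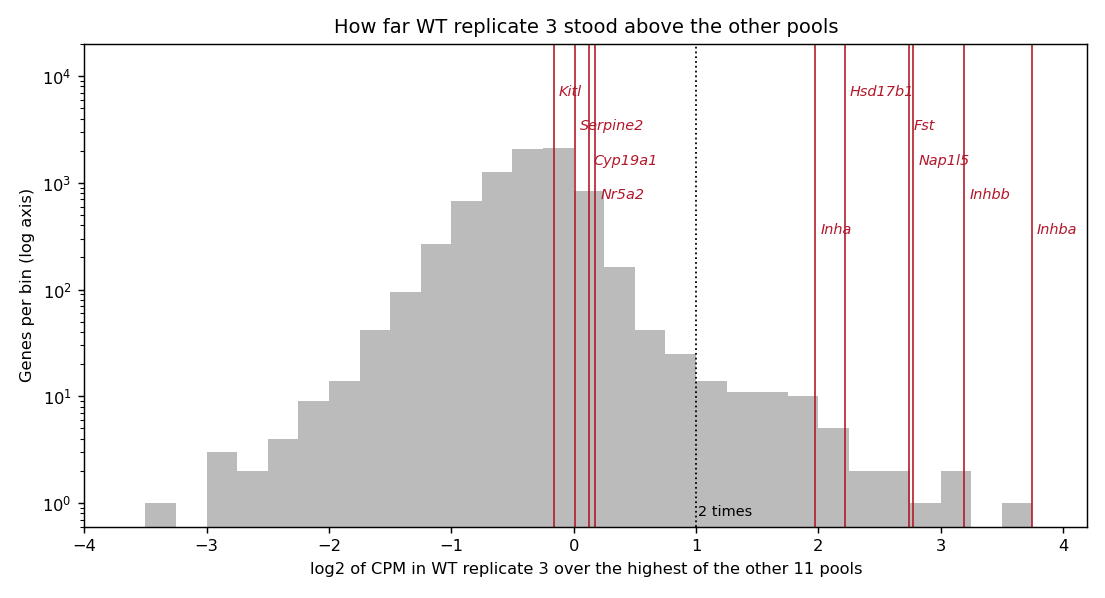
Histogram of log2 of the ratio of CPM in WT replicate 3 to the highest of the other 11 pools for the 7732 genes with at least 10 CPM in WT replicate 3, with a log axis for the number of genes per bin. Red lines mark the 10 members, 6 of them to the right of the dotted line at 2 times and 4 of them inside the bulk of genes.

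Per kilobase of exon, which allows levels of different genes to be compared, the order of the members differed between WT replicate 3 and the other pools. In WT replicate 3, Inha was highest at 52.8 CPM per kilobase, followed by Serpine2 at 44.7, Inhbb at 36.5, Nap1l5 at 21.0, Nr5a2 at 17.4, Hsd17b1 at 11.4, Inhba at 11.2, Cyp19a1 at 7.61, Fst at 4.42 and Kitl at 2.25. In the median of the other 11 pools Serpine2 was far ahead at 41.4 CPM per kilobase, followed by Nr5a2 at 13.1, Cyp19a1 at 5.09, Inha at 3.66, Kitl at 1.72, Inhbb at 1.17, Hsd17b1 at 0.936, Nap1l5 at 0.891, Fst at 0.330 and Inhba at 0.261. Hsd17b1 and Inhba in WT replicate 3 were too close to order. Across the other 11 pools, the ranges of Serpine2, Nr5a2 and Cyp19a1 did not overlap one another, and Serpine2 was above Nr5a2 and Nr5a2 above Cyp19a1 in all 11. From Cyp19a1 down, each gene's range overlapped that of the next, so the order of those medians did not hold in every pool. Inha ran from 1.52 to 13.4 CPM per kilobase and crossed Cyp19a1, at 3.68 to 6.99, while Kitl was above Inhbb in 6 of the 11 pools.

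RefSeq promoter windows of GRCm38.p6, from 250 bases before to 50 bases after a start, were found for 8 of the 10 members, 11 windows in all. The windows below belong to 3 members with high ratios in WT replicate 3 (Inhba, Inhbb and Nap1l5) and to Kitl, which stood low in the double knockout. They are a selection, and the other windows, among them that of Inha, are not shown. Capitals mark matches, on either strand, to the TATA box letters TATAAA and to the GC box letters GGGCGG; in Kitl, 2 GC box matches overlap.
Inhba (chr13:16011601-16011900, plus strand): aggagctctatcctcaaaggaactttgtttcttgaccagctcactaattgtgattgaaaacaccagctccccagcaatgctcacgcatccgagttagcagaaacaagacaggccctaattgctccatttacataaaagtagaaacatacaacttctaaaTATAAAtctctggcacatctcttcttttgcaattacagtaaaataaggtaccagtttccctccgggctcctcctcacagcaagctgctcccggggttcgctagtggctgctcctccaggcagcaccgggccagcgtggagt
Inhbb (chr1:119422199-119422498, minus strand): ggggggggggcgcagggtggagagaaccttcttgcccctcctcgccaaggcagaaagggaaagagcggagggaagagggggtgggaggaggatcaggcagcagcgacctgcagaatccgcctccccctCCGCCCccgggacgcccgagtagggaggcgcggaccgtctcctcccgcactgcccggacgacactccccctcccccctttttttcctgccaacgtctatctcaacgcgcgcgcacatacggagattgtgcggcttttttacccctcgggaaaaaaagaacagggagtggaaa
Nap1l5 (chr6:58907077-58907376, minus strand): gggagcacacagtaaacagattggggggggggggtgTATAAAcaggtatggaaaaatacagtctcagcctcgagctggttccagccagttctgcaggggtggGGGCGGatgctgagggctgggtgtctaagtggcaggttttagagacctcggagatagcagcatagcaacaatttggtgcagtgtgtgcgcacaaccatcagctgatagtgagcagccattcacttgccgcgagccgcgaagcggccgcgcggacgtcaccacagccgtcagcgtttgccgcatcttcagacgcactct
Kitl (chr10:100015571-100015870, plus strand): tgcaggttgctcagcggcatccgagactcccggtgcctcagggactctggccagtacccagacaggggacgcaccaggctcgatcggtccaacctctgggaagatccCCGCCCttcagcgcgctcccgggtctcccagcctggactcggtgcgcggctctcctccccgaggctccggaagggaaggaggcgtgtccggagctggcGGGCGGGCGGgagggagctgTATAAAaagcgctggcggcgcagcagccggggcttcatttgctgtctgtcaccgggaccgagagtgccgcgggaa
The Inhba window held 1 TATA box match, the Inhbb window 1 GC box match, the Nap1l5 window 1 of each, and the Kitl window 1 TATA box match and 3 GC box matches. The Inha window held 0 of either. Among all 32851 windows of the table, 13.6% held TATAAA and 35.7% held GGGCGG. The letters AAGGTCA, a half-site for NR5A receptors, were in 4.72% of all windows, and the cAMP response element TGACGTCA was in 1.79%; 0 of the 11 member windows held either. A match is a description of these letters only.

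The 3 subunits also differed in their proportions. In WT replicate 3 the subunits had 3648 counts, of which Inha made up 25.6% (exact 95% interval 24.2 to 27.0%), Inhba 23.4% (22.0 to 24.8%) and Inhbb 51.0% (49.4 to 52.6%). In the other 11 pools, with 39 to 451 counts of the 3 subunits, Inha made up 24.2 to 89.7%, Inhba 2.00 to 20.3% and Inhbb 7.69 to 60.8%. The Inhba share of WT replicate 3 was the highest of the 12 pools, with an interval that overlapped that of Mfn1-/- replicate 2. WT replicates 1 and 2 resembled each other, with Inha at 57.5% (50.1 to 64.7%) and 55.4% (50.6 to 60.2%). Mfn1&2-/- replicate 2 had an Inha share of 24.2% (18.4 to 30.9%) with 194 counts, close to that of WT replicate 3. The intervals cover counting error only, as reads carry no molecular identifiers.

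**Figure D3:**
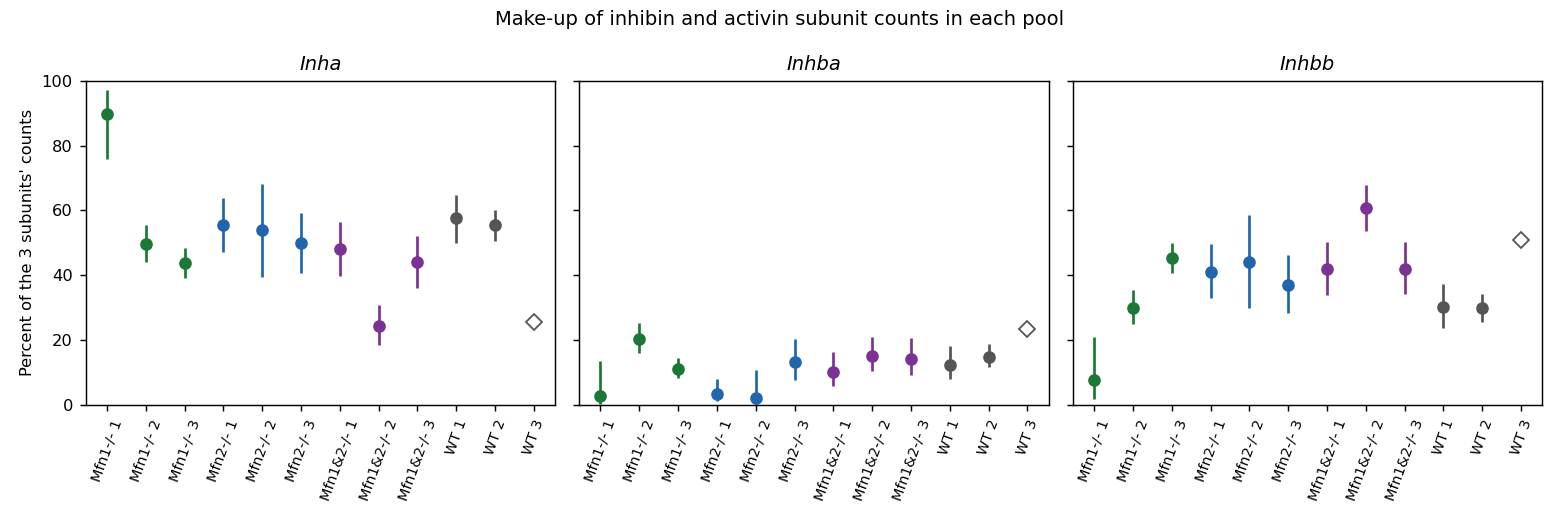
Share of the summed Inha, Inhba and Inhbb counts that each subunit made up in every pool, in percent, with exact 95% intervals; the open diamond is WT replicate 3. In that pool Inha made up 25.6% and Inhbb 51.0%, whereas in WT replicates 1 and 2 Inha made up 57.5% and 55.4%.

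Outside WT replicate 3, the 6 genes over 2 times there were uneven at low levels. The summed CPM of the 3 subunits in Mfn1-/- was 2.93, 19.4 and 37.6, in Mfn2-/- 9.72, 4.15 and 8.17, in Mfn1&2-/- 12.5, 12.8 and 11.9, and in WT replicates 1 and 2 14.9 and 35.8. Mfn1-/- spread the most and Mfn1&2-/- the least. WT replicate 2 and Mfn1-/- replicate 3 were the 2 highest of these 11 pools for Inha, Inhba and Inhbb. Mfn1-/- replicate 3 was also second for Fst and Hsd17b1, while Mfn1-/- replicate 1 was lowest for Inhba, Inhbb, Fst and Hsd17b1. In Mfn1-/- replicate 1, Serpine2 stood at 345.4 CPM, Nr5a2 at 90.8 CPM, Cyp19a1 at 20.3 CPM and Kitl at 7.29 CPM. Which cells the RNA of these genes came from was not tested. Over these 11 pools, the genes whose log2 CPM was most like the subunits' sum, the subunits themselves left out, were Gja1, Cd300lf and Mynn. Their Pearson r was 0.96, 0.93 and 0.92. Gja1 stood at 2.71, 17.5 and 27.3 CPM in Mfn1-/-, at 6.46, 2.91 and 7.56 CPM in Mfn2-/-, at 15.6, 7.63 and 7.80 CPM in Mfn1&2-/-, and at 15.4 and 28.5 CPM in those WT pools. The lowest and the highest Mfn1-/- pools were the same for Gja1 and for the subunits. Gja1 was chosen for its likeness over the same pools, so this follows largely from the choice.

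The comparisons of each knockout with WT ask what loss of a mitofusin changed, and all of them contain WT replicate 3. They were fitted with edgeR's quasi-likelihood test over all 12 libraries, with Benjamini-Hochberg adjustment over 11385 genes and a call at an adjusted p below 0.05, and again without WT replicate 3. Values after ± are standard errors for log2 fold changes. For the 6 genes chosen for that pool the fold changes against WT are given with and without that library, and nothing is read from their calls.

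In Mfn1-/- against WT, 0 of the 10 members were called, while 0.228% of all genes were. At an unadjusted p below 0.05 edgeR had 6 members and 12.8% of all genes; the 6 are those chosen for WT replicate 3, so the count follows from the choice. Without WT replicate 3, 0 members and 0.114% of all genes were called, and 0 members and 9.93% of all genes had an unadjusted p below 0.05. DESeq2 called 0 members with all 12 libraries. The members' median log2 fold change was -2.12 with all 12 libraries and -0.35 without WT replicate 3, beside medians over all genes of -0.0095 and -0.0037. Inhbb stood at -2.90 ± 1.06 with the pool and 0.02 ± 0.87 without it, so no direction remained without the pool.

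In Mfn2-/- against WT, 5 of the 10 members were called lower, while 11.4% of all genes were called in either direction and 6.87% were called lower. All 5 are among the 6 members chosen for WT replicate 3, a pool of the WT group, so the count follows from the choice. Nap1l5 averaged 0.312 ± 0.270 CPM in Mfn2-/- and 15.5 ± 20.2 CPM in WT (SD, n = 3 each), at -5.53 ± 1.07. Inhba stood at -5.65 ± 1.28, Inhbb at -4.25 ± 1.14, Inha at -3.17 ± 0.71 and Hsd17b1 at -2.69 ± 0.74. Fst, at -3.33 ± 1.07, was not called, although it was with only the groups compared in the fit. Without WT replicate 3, when 6.41% of all genes were called, Nap1l5 was the member still called, at -3.53 ± 0.92 (edgeR adjusted p = 0.0340). The others stood at -2.79 ± 1.05 for Inhba, -1.85 ± 0.59 for Inha, -1.66 ± 1.05 for Fst, -1.35 ± 0.87 for Inhbb and -1.22 ± 0.66 for Hsd17b1, with edgeR adjusted p from 0.0746 to 0.419. The count was 3 without any 1 of the Mfn2-/- replicates and 3 with a replicate block, and limma-voom called 0 members. Oocyte markers stood the other way in this comparison: 7 of 20 (Zp1, Bmp15, Ooep, Tle6, Padi6, Mos and Oosp1) were called higher, beside 4.52% of all genes. Without WT replicate 3, 2 of the 20 (Bmp15 and Oosp1) were called higher, beside 2.57% of all genes. Their part in the members' fold changes was not tested. Kitl was at -0.04 ± 0.27 with all 12 libraries and -0.02 ± 0.31 without that pool, and Serpine2 at -0.01 ± 0.11 and 0.06 ± 0.12. Nr5a2 was not called with all 12 libraries, at -0.25 ± 0.14 (edgeR adjusted p = 0.260).

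In Mfn1&2-/- against WT, 2 of the 10 members were called lower, while 4.21% of all genes were called in either direction and 2.11% were called lower. Kitl fell to 4.08 ± 0.790 CPM in Mfn1&2-/-, against 13.0 ± 1.89 CPM in WT (SD, n = 3 each), at -1.67 ± 0.29 (edgeR quasi-likelihood adjusted p = 0.00322). Inha, chosen for WT replicate 3, stood at -2.90 ± 0.70. Without WT replicate 3, when 3.00% of all genes were called, Kitl was the member still called, at -1.65 ± 0.31 (edgeR adjusted p = 0.0108), and Inha was at -1.58 ± 0.58 (edgeR adjusted p = 0.184). Nr5a2 averaged 64.3 ± 6.91 CPM in Mfn1&2-/- and 90.8 ± 10.4 CPM in WT and missed the threshold, at -0.50 ± 0.14 (edgeR adjusted p = 0.0506), and at -0.40 ± 0.14 without WT replicate 3 (edgeR adjusted p = 0.173). Nr5a2 was called with RLE scaling (edgeR adjusted p = 0.0449), with library size only (0.0494), with at least 5 CPM in 3 libraries (0.0434) and with DESeq2 (adjusted p = 0.0116), and also when Mfn1-/- replicate 1, Mfn1-/- replicate 3 or Mfn1&2-/- replicate 1 was left out. Cyp19a1 was at -0.47 ± 0.23 and Serpine2 at 0.04 ± 0.11, neither called. The count of members was 5 without WT replicate 1, 4 without Mfn1-/- replicate 1, and 1 without WT replicate 3, Mfn1&2-/- replicate 2 or Mfn1&2-/- replicate 3, and Kitl was called in all of these and under every other alternative tried.

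**Figure D4:**
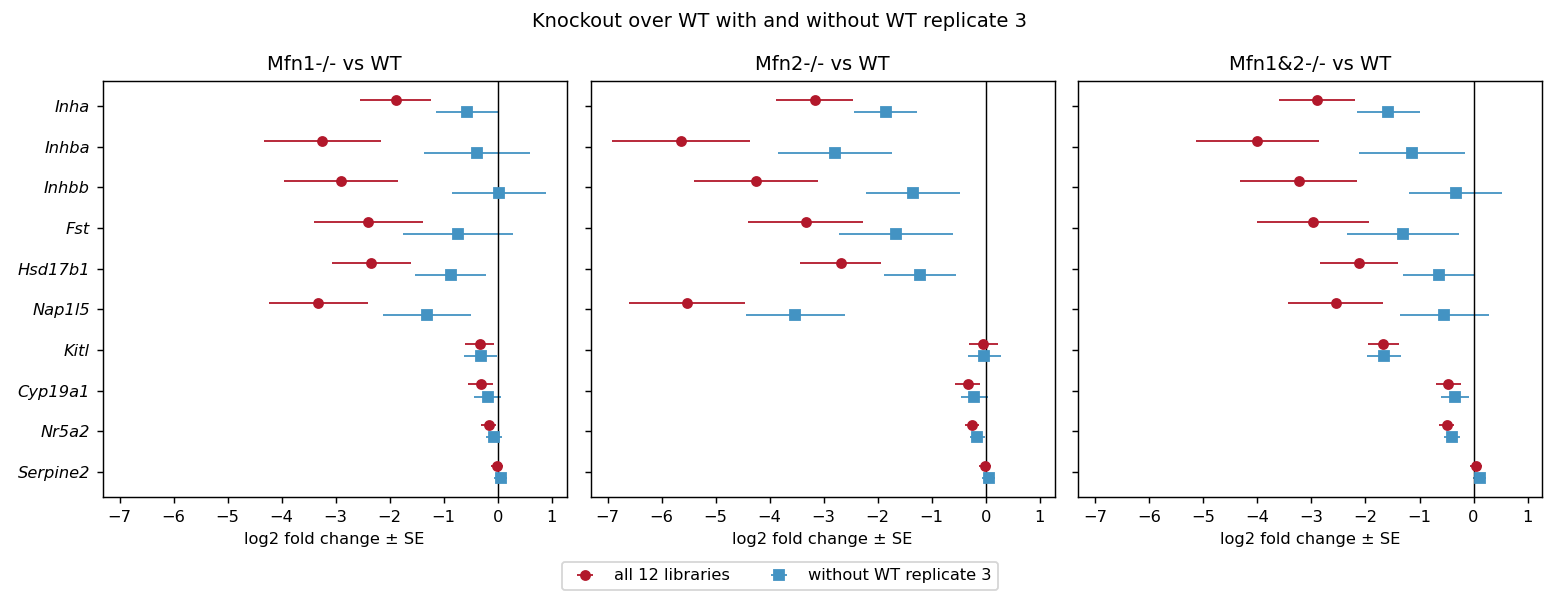
Log2 fold change of each knockout over WT with its standard error for the 10 members, from all 12 libraries (circles) and without WT replicate 3 (squares). Inha, Inhba, Inhbb, Fst, Hsd17b1 and Nap1l5 shift toward 0 without that pool, while Kitl in Mfn1&2-/- stays at -1.67 and -1.65.

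The comparisons between knockouts leave WT replicate 3 out of both groups, although it still adds to the spread that the fit estimates for each gene. Kitl was the member called in Mfn1&2-/- against Mfn1-/-, where 5.36% of all genes were called and 2.60% were lower. It averaged 4.08 ± 0.790 CPM in Mfn1&2-/- and 10.2 ± 3.00 CPM in Mfn1-/- (SD, n = 3 each), at -1.33 ± 0.28 (edgeR adjusted p = 0.0127). This call was lost without Mfn1-/- replicate 2 (edgeR adjusted p = 0.0647) and without Mfn1&2-/- replicate 2 (edgeR adjusted p = 0.0558).

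Kitl was also the member called in Mfn1&2-/- against Mfn2-/-, where 10.2% of all genes were called and 4.08% were lower. It averaged 4.08 ± 0.790 CPM in Mfn1&2-/- and 12.6 ± 2.51 CPM in Mfn2-/-, at -1.63 ± 0.28 (edgeR adjusted p = 0.00272), and it was called under every alternative tried. Kitl was thus called lower in the double knockout than in each of the other groups. The comparisons of Mfn1&2-/- share its 3 pools. Nap1l5 averaged 2.64 ± 0.988 CPM in Mfn1&2-/- and 0.312 ± 0.270 CPM in Mfn2-/-, at 2.98 ± 1.05 (edgeR adjusted p = 0.0845), and was not called. It was called higher once WT replicate 3 was left out of the fit, at 2.99 ± 0.87 (edgeR adjusted p = 0.0390), and also once WT replicate 1 was.

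In Mfn1-/- against Mfn2-/-, 13.3% of all genes were called and 0 of the 10 members were, with 0 called by DESeq2. At an unadjusted p below 0.05 edgeR had 0 members and 27.5% of all genes with all 12 libraries, and 3 members and 28.7% of all genes without WT replicate 3. The 6 members chosen for WT replicate 3 stood from 0.34 (Hsd17b1) to 2.39 (Inhba), with standard errors of 0.69 to 1.26 on the log2 scale, so the spread between pools was wide. Kitl was at -0.29 ± 0.27, Cyp19a1 at 0.02 ± 0.23, Nr5a2 at 0.08 ± 0.14 and Serpine2 at -0.0035 ± 0.11.

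**Figure D5:**
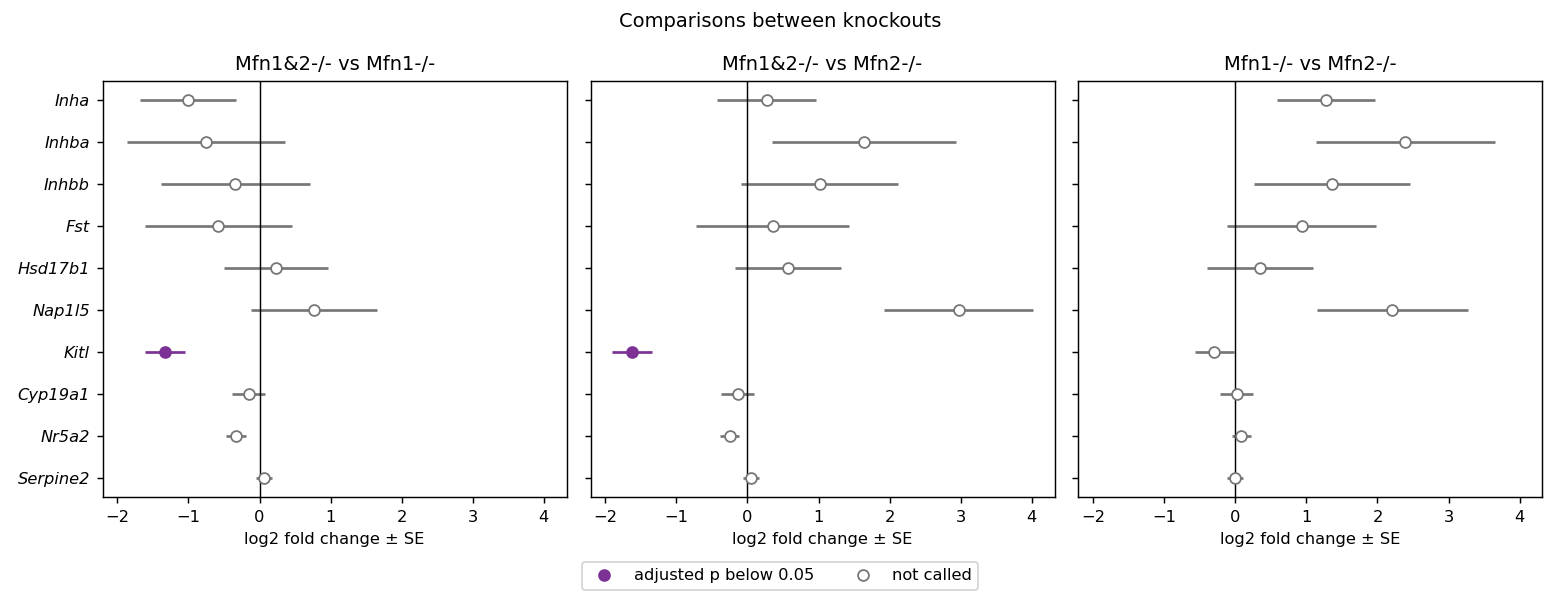
Log2 fold change with its standard error for the 10 members in the 3 comparisons between knockouts, all 12 libraries; filled points have an adjusted p below 0.05. Kitl is the filled point in the first pair of panels, at -1.33 against Mfn1-/- and -1.63 against Mfn2-/-, and the 6 genes chosen for WT replicate 3 have standard errors of 0.68 or more.

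Whether the fall of Kitl in the double knockout exceeded the sum of the changes in the single knockouts was asked by the interaction of the losses, a comparison chosen after the data had been seen, in which 4.13% of all genes were called. Kitl had an interaction of -1.29 ± 0.39 on the log2 scale (edgeR adjusted p = 0.0739), and -1.31 ± 0.43 without WT replicate 3 (edgeR adjusted p = 0.119), so it was not called by edgeR, and DESeq2 called it (-1.29, adjusted p = 0.0406). Nap1l5 stood at 6.30 ± 1.38 with all 12 libraries, a value that holds the pool it was chosen for, and nothing is read from it. Without WT replicate 3, when 1.75% of all genes were called, Nap1l5 stood at 4.30 ± 1.19 and was not called (edgeR adjusted p = 0.0781).

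The genes whose log2(CPM + 1) over the 12 pools was most like that of Kitl were Sec16b, Spire2 and Kntc1, with Pearson r of 0.94, 0.93 and 0.91 and Spearman rho of 0.69, 0.80 and 0.76. Sec16b encodes a protein of endoplasmic reticulum exit sites. It stood at 1.35, 0.526 and 3.25 CPM in Mfn1&2-/-, and at 12.3 to 36.5 CPM in the other 9 pools, with no overlap. Spire2, an actin nucleator, stood at 15.9, 16.3 and 19.6 CPM in Mfn1&2-/- and at 23.4 to 31.7 CPM elsewhere. Kntc1, a kinetochore protein, showed no overlap either, at 111.2, 122.9 and 118.5 CPM in Mfn1&2-/- and 126.2 to 171.1 CPM elsewhere. Sec16b, Spire2 and Kntc1 were chosen for likeness to Kitl over the same pools, so their low values in Mfn1&2-/- follow largely from the choice. Tnfrsf21 was the gene most like Cyp19a1 (r of 0.88), Mlec that most like Nr5a2 (0.92) and Gins1 that most like Serpine2 (0.81), each over the 12 pools that share these libraries.

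Marker lists show what else moved with WT replicate 3. Of 33 granulosa genes listed, 17 were tested, 10 of which are not members. Of these 10, WT replicate 3 was the highest pool for 4 (Esr2, Ccnd2, Gja1 and Bex4), beside 13.1% of all genes, and Gja1 was the 1 over 2 times the next pool. Their summed level without the members was 147.0 to 187.0 CPM in Mfn1-/-, 194.4 to 198.9 CPM in Mfn2-/-, 237.6 to 256.0 CPM in Mfn1&2-/- and 205.2 to 433.6 CPM in WT. The highest of these is WT replicate 3, where Gja1 alone gave 183.6 CPM. Without Gja1 the sum was 250.04 CPM there and 144.3 to 248.4 CPM in the other 11 pools. Emx2, also in this sum, averaged 83.2 CPM in Mfn1&2-/-, against 25.9 CPM in Mfn1-/-, 41.8 CPM in Mfn2-/- and 36.8 CPM in WT. The sum without Emx2 was not computed, so nothing is read from its level in Mfn1&2-/-. Gata4, a transcription factor of granulosa cells, stood at 29.5 CPM in WT replicate 3, 0.54 times the highest other pool. Esr2, the estrogen receptor of granulosa cells, was at 82.5 CPM (1.22 times) and Ccnd2, a cyclin of their growth, at 59.1 CPM (1.24 times). Other defining genes of granulosa cells, such as Foxl2, Amh and Wt1, were not among the 11385 genes tested.

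Over all 7732 genes with at least 10 CPM in WT replicate 3, 0.763% were over 2 times the next pool. Of 12 genes of steroid synthesis listed, 8 were tested and 2 were over 2 times, Hsd17b1 and Hsd3b1, which makes progesterone and stood at 44.9 CPM (3.62 times). Of 12 genes of cumulus expansion, 4 were tested and Vcan, a matrix proteoglycan, was over 2 times at 24.3 CPM (2.79 times). Of 16 theca and stroma markers, 4 were tested and 0 were over 2 times, and of 15 markers of endothelium, blood and immune cells, 5 were tested and 0 were over 2 times. Of 20 oocyte markers, all tested, 0 were highest in WT replicate 3, beside 13.1% of all genes, and 9 were lowest there. The share of all genes lowest in that pool was not computed, so nothing is read from the 9. The summed level of the 20 markers was 18968 CPM in WT replicate 3 against 20238 to 27152 CPM in the other 11 pools. The part of granulosa RNA in the comparisons with WT was not tested beyond leaving out the pool.

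Of the other genes of the activin and inhibin system, 20 receptors and Smads were listed and 14 were tested, of which 0 were over 2 times the next pool in WT replicate 3. In Mfn1-/- against WT 0 of the 14 were called. In Mfn2-/- against WT 1 was called higher and 1 lower, beside 11.4% of all genes in either direction. The signal carrier Smad4 was higher at 0.30 ± 0.09 (edgeR adjusted p = 0.0494), a call that was lost without WT replicate 3 (0.34 ± 0.10, edgeR adjusted p = 0.0660). Tgfbr3, betaglycan, the coreceptor for inhibin, was lower at -1.17 ± 0.20 (edgeR adjusted p = 0.00230), and at -1.20 ± 0.23 without WT replicate 3 (edgeR adjusted p = 0.00683). In Mfn1&2-/- against WT 0 were higher and 1 was lower, again Tgfbr3, at -1.18 ± 0.20 (edgeR adjusted p = 0.00368), beside 4.21% of all genes.

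Between knockouts, the list had the most calls in Mfn1-/- against Mfn2-/-, where 4 of the 14 were higher and 0 lower, beside 6.84% of all genes higher. These were Tgfbr3 at 1.25 ± 0.20 (edgeR adjusted p = 0.00113), the type I receptors Acvr1 at 0.79 ± 0.20 and Tgfbr1 at 0.53 ± 0.16, and the signal carrier Smad3 at 0.30 ± 0.09. In Mfn1&2-/- against Mfn1-/- 0 were higher and 2 lower, Tgfbr1 and Tgfbr3 (-1.27 ± 0.20 for Tgfbr3), beside 5.36% of all genes. In Mfn1&2-/- against Mfn2-/- 0 were higher and the receptor Bmpr1a was the 1 lower, at -0.35 ± 0.10, beside 10.2% of all genes.

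Of 12 ligands and binding proteins listed, 9 were tested, 4 of them members. Fstl1, a secreted relative of follistatin, averaged 7.03 ± 1.54 CPM in Mfn1-/-, 0.962 ± 0.696 CPM in Mfn2-/-, 1.23 ± 0.739 CPM in Mfn1&2-/- and 5.83 ± 1.30 CPM in WT (SD, n = 3 each). It was lower in Mfn2-/- than in WT (-2.58 ± 0.58, edgeR adjusted p = 0.00973), in Mfn1&2-/- than in WT (-2.23 ± 0.57, edgeR adjusted p = 0.0353) and in Mfn1&2-/- than in Mfn1-/- (-2.50 ± 0.57, edgeR adjusted p = 0.0178), and higher in Mfn1-/- than in Mfn2-/- (2.85 ± 0.58, edgeR adjusted p = 0.00475). Without WT replicate 3 the call in Mfn1&2-/- against WT was lost (-2.27 ± 0.62, edgeR adjusted p = 0.0663). Bmp15, a growth factor that the oocyte makes, went the other way in Mfn2-/-. It was higher in Mfn2-/- than in WT (0.50 ± 0.08, edgeR adjusted p = 0.000958; 0.46 ± 0.09 without WT replicate 3, adjusted p = 0.00618), and lower in Mfn1-/- than in Mfn2-/- (-0.49 ± 0.08) and in Mfn1&2-/- than in Mfn2-/- (-0.27 ± 0.08). Gdf9, the related oocyte factor, was lower in Mfn1-/- than in Mfn2-/- (-0.36 ± 0.11, edgeR adjusted p = 0.0386). Fst itself was called in 0 of the 6 comparisons between groups in the fit of all 12 libraries.

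The Kit receptor, an oocyte gene, was highest in Mfn2-/-. It stood at 644.5 to 665.1 CPM in Mfn1-/-, at 745.3, 797.5 and 807.0 CPM in Mfn2-/-, at 682.3, 658.3 and 592.8 CPM in Mfn1&2-/- and at 659.8 to 705.5 CPM in WT. It was lower than in Mfn2-/- both in Mfn1&2-/- (-0.28 ± 0.08, edgeR adjusted p = 0.0323) and in Mfn1-/- (-0.25 ± 0.08, edgeR adjusted p = 0.0452). Kit was called in none of the comparisons with WT, at -0.09 ± 0.08 in Mfn1&2-/-. The steroid gene Hsd3b1, the matrix gene Vcan and the connexin Gja1 were each called lower in Mfn2-/- against WT, beside 6.87% of all genes. Hsd3b1 and Vcan were also called lower in Mfn1&2-/- against WT (edgeR adjusted p = 0.0406 and 0.0140), beside 2.11% of all genes. None of these calls held without WT replicate 3. Each of these genes stood over 2 times the next pool in that WT pool, so nothing is read from the calls.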

How the data were processed

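Total RNA was measured in 12 pools of denuded germinal vesicle oocytes. Raw counts per gene were deposited by the authors. The signal table was deposited as CPM scaled by library size and TMM factors, and it equalled TMM CPM computed from the counts within a relative 5.07e-15. STAR 2.7.0a, mm10, FastQC 0.11.7 and edgeR (no version) appear in the submitters' processing notes; the sources used here do not give the counter, annotation or strand setting. The low-input SMARTer total RNA kit amplifies cDNA, so low counts are noisy. Without the strand setting, whether antisense or overlapping reads were separated is not known. Per the labels, libraries were read as 100 bp pairs. Every gene was above 1 CPM in at least 3 libraries.

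Groups were taken from the labels. A genotype spelled "Mn2-/-" on 1 pool was put with Mfn2-/- on the strength of its description. The members, marker lists and comparisons were chosen with earlier results of these data known. Counts went into a quasi-likelihood model of edgeR 4.0.16 (R 4.3.3) with TMM scaling, 1 mean per group and 8 residual degrees of freedom; filterByExpr kept 11385 genes. p-values were adjusted by Benjamini-Hochberg over all genes. Standard errors are the absolute log2 fold change over the square root of F. The fit was tested on simulated data. The 6 comparisons between groups were refitted with RLE scaling, library size only, DESeq2 1.42.0, limma-voom (limma 3.58.1), no filter, at least 5 CPM in 3 libraries, a replicate block, only the groups compared, and without each library. The interaction and the list counts without WT replicate 3 were chosen after seeing the data.

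Named genes were the 12 with the largest ratio of WT replicate 3 to the highest other pool, the 3 most like Kitl, Cyp19a1, Serpine2 and Nr5a2 in log2(CPM + 1) over 12 pools (mean of at least 5 CPM), those most like the summed subunits over 11 pools, Mfn1, Mfn2 and list genes that were called. Predicted genes were not named. The 9 lists held 138 distinct genes, 81 of them tested. Exon lengths and positions are from GENCODE vM21, promoters from RefSeq.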

Additional observations from a re-analysis of the deposited data

Results flagged for a closer look

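Among the genes named in this report, 3 passed the threshold for the interaction of the losses of mitofusin 1 and mitofusin 2. That interaction tests whether the effect of losing either differed with the other. Over all 11385 genes 470 passed (4.13%), so the 3 are a selection and nothing is read from their number. Emx2 had 1.502 ± 0.30 on the log2 scale (edgeR quasi-likelihood adjusted p = 0.0152), and 1.31 ± 0.29 without WT replicate 3 (edgeR adjusted p = 0.0366). Sec16b had -2.68 ± 0.56 (edgeR adjusted p = 0.0185). It was named for its likeness to Kitl over the same pools, so its low values in Mfn1&2-/- were known when it was named.

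Nap1l5 had 6.30 ± 1.38, but that value holds WT replicate 3, at 38.7 CPM against 0 to 5.65 CPM in the other 11 pools, and Nap1l5 was chosen for that pool. It was not called without WT replicate 3 (4.30, edgeR adjusted p = 0.0781), with limma-voom (5.92, adjusted p = 0.194), without Mfn1-/- replicate 1 (5.85, edgeR adjusted p = 0.0549) or without Mfn2-/- replicate 2 (5.79, edgeR adjusted p = 0.0550).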

How the results depend on the processing

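Limits: each group had 3 pools, 1 of the WT pools stood apart, most of the 6 members chosen for it had under 10 CPM elsewhere, and whether the pools came from separate animals is not given. Of 470 member fold changes under other settings, 439 kept their direction and side of the threshold, 9 lost and 7 gained a call and 15 changed sign; of 744 with 1 library left out the numbers were 692, 18, 12 and 22. The ratios of WT replicate 3 to the mean of the other 11 pools, 10.2 to 36.2 for those 6 members, were 6.50 to 24.4 with 1 CPM added. The call of Kitl in Mfn1&2-/- held under all alternatives against WT and Mfn2-/-.

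Members called in Mfn2-/- against WT (5) were 0 with limma-voom, 2 with at least 5 CPM in 3 libraries and 3 with a replicate block. In Mfn1&2-/- against WT (2) they were 4 with DESeq2 and 1 with limma-voom. Genes called by DESeq2 were 224 in Mfn1-/- against WT (13 with only the groups compared, main count 26), 834 in Mfn1&2-/- against WT (479) and 1044 in Mfn1&2-/- against Mfn1-/- (610). With library size only, the share of higher calls was 49.8% for 39.7% (Mfn2-/- against WT), 38.5% for 51.5% (Mfn1&2-/- against Mfn1-/-), 48.2% for 60.1% (Mfn1&2-/- against Mfn2-/-) and 46.3% for 70.9% (interaction), and the interaction's median over all genes moved to -0.12.

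With 1 library left out, members called were 1 to 6 in Mfn2-/- against WT, 1 to 5 in Mfn1&2-/- against WT, 0 to 1 against Mfn1-/- and 1 to 2 against Mfn2-/-. Genes called were 3 to 51 in Mfn1-/- against WT, 708 to 1429 in Mfn2-/- against WT, 282 to 550 in Mfn1&2-/- against WT, 295 to 689 against Mfn1-/-, 570 to 1302 against Mfn2-/- and 873 to 1673 in Mfn1-/- against Mfn2-/-.

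Sign changes were near 0 or of noisy genes; the cause was not tested. For Serpine2, the log2 fold change was 0.042 in Mfn1-/- against WT, 0.032 in Mfn2-/- against WT and -0.0030 in Mfn1&2-/- against Mfn1-/- with library size only. In Mfn1-/- against Mfn2-/-, Serpine2 was 0.0020 with RLE scaling, 0.0099 with library size only, 0.0020 with DESeq2, 0.0036 with limma-voom, 0.0081 with a replicate block and 0.011 with only the groups compared. Kitl in Mfn2-/- against WT was 0.0011 with library size only. In Mfn1&2-/- against Mfn1-/-, limma-voom gave 0.37 for Inhba, 1.03 for Inhbb and 0.51 for Fst, and a replicate block 0.48 for Inhbb; in Mfn1-/- against Mfn2-/- limma-voom gave -0.23 for Fst. With 1 library left out, Serpine2 ran from -0.10 to 0.053 (Mfn1-/- against WT), -0.10 to 0.11 (Mfn2-/- against WT), -0.046 to 0.11 (Mfn1&2-/- against WT), -0.068 to 0.12 (Mfn1&2-/- against Mfn2-/-) and -0.13 to 0.081 (Mfn1-/- against Mfn2-/-). Inhbb ran from -4.19 to 0.020 (Mfn1-/- against WT) and -0.93 to 0.95 (Mfn1&2-/- against Mfn1-/-), Hsd17b1 from -0.13 to 0.70 (Mfn1&2-/- against Mfn1-/-) and -0.13 to 0.71 (Mfn1-/- against Mfn2-/-), Cyp19a1 from -0.33 to 0.15 (Mfn1&2-/- against Mfn2-/-) and -0.18 to 0.32 (Mfn1-/- against Mfn2-/-), and Kitl from -0.18 to 0.10 (Mfn2-/- against WT).

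Deviations from the group means were correlated between pools of different groups. Of 18 same-numbered pairs 4 had a correlation over 0.1 (-0.13 to 0.18, median -0.013). Of 36 pairs with other numbers 2 did (-0.26 to 0.18, median -0.00087). This does not settle whether pools were paired, and the main fit used no pairing.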

Other observations

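The following 4 other genes that stood high in WT replicate 3 are given here, picked after their values were seen from the 59 over 2 times the next pool. Igf1, a growth factor made by granulosa cells in mice, stood at 19.2 CPM in WT replicate 3 and at 0.376 to 6.23 CPM in the other 11 pools. Greb1, an estrogen-regulated gene, stood at 46.1 CPM there and at 4.59 to 13.9 CPM in the others. The imprinted noncoding RNA Meg3 stood at 16.5 CPM there and at 0.400 to 3.82 CPM in the others, and Malat1, an abundant nuclear noncoding RNA, at 228.6 CPM there and at 32.8 to 75.2 CPM in the others. These values are a description with no test.

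Emx2, a homeobox gene in the granulosa list, was picked likewise after its values were seen. It stood at 46.0 CPM in WT replicate 3, inside the 18.9 to 96.8 CPM of the other 11 pools. It was higher in Mfn1&2-/- than in Mfn1-/- (1.69 ± 0.22, edgeR quasi-likelihood adjusted p = 0.000252), than in Mfn2-/- (0.99 ± 0.21, edgeR adjusted p = 0.00803) and than in WT (1.18 ± 0.21, edgeR adjusted p = 0.00468), and higher against WT also without WT replicate 3 (1.37 ± 0.23, edgeR adjusted p = 0.00432).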
